A study of Mus musculus with 12 samples.

Results

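The effect of prenatal valproic acid on adult mouse forebrain was estimated over both genotypes at once, by setting all 6 exposed libraries against all 6 unexposed libraries of the series. All 12 of the 12 libraries entered the comparison, and membership came from the genotype and treatment labels alone. The unexposed libraries were 3 wildtype (WT) and 3 labelled htr3a Notch KO, a Notch conditional knockout. The exposed libraries were 3 WT and 3 htr3a Notch KO that had received valproic acid before birth. A model with a term for genotype and a term for treatment was fitted to raw read counts per gene, and the treatment term was tested for 17995 genes. Which Notch gene was deleted, the Cre line, the strain, the exact age, the dose, the day of exposure and a vehicle for the unexposed groups are not stated in the labels. Nor do they tell if each library came from its own animal, so the p-values measure only the spread between these libraries.

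Valproic acid is an antiepileptic and mood-stabilising drug that inhibits class I and class IIa histone deacetylases, enzymes that remove acetyl groups from histones and so limit transcription. Exposure of rodents before birth is widely used to model features of autism. The adult forebrain holds the cortex, the striatum and, depending on the dissection, the olfactory bulb and other parts. Striatal projection neurons release GABA and form a direct pathway, marked by the D1 dopamine receptor and substance P, and an indirect pathway, marked by the D2 dopamine receptor and enkephalin. They arise in the ventral forebrain under transcription factors of the Dlx, Meis, Isl and Sp families. Neurons of the cortical layers release glutamate and come from the dorsal forebrain. In bulk tissue, fewer cells of a type and less RNA per cell cannot be told apart.

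Libraries held 16887885 to 24944681 counts, of which genes of the mitochondrial genome took 12.2% to 18.6%. Markers of striatal, cortical, glial, choroid plexus and meningeal cells were all detected, as a forebrain sample can hold. Xist, the RNA of the inactive X chromosome, had 12 and 6 counts in replicate 3 of both exposed groups and 5919 to 10767 counts in each of the other 10 libraries. The Y-linked gene Ddx3y had 829 and 925 counts in those 2 libraries and 0 to 2 in the rest. By these counts the 2 libraries with low Xist are male and the other 10 female. Both male libraries were exposed ones, so sex is partly confounded with exposure. Counts of changed genes are also given without them.

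Prenatal valproic acid was followed by many small differences and few large ones. In edgeR's quasi-likelihood test with Benjamini-Hochberg adjustment at 0.05, 367 genes rose, which is 2.04% of the 17995 tested, and 653 fell, which is 3.63%. Together they made 1020 genes, or 5.67%, and an unadjusted p under 0.05 was found for 3858 genes, or 21.4%. The counts given for gene lists below are to be set beside the shares of 2.04% and 3.63%. The median log2 fold change was 0.27 among the genes that rose and -0.25 among those that fell. Changes of 0.5 or more in log2, either way, were reached by 43 of the genes that rose and 57 of those that fell, and changes of 1 or more by 10 and 9. A positive value, past the test or not, was found for 52.4% of tested genes. All 6 exposed libraries lay above all 6 unexposed ones for 193 genes, 1.07% of those tested, and below them for 372, or 2.07%. Among the genes past the test this held for 133 that rose and 301 that fell. Protein-coding genes made up 96.7% of the genes that rose and 96.8% of those that fell, against 82.4% of all tested. Genes just inside the threshold had log2 fold changes of 0.26 (Trpv2), 0.32 (Als2cl) and -0.22 (Mrps33), and those just outside -0.67 (Myo3b), -0.17 (Erh) and -0.16 (Arcn1). Without both libraries with low Xist, 224 genes passed, 53 higher and 171 lower, of which 217 were among the 1020 with the same sign.

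**Figure D1:**
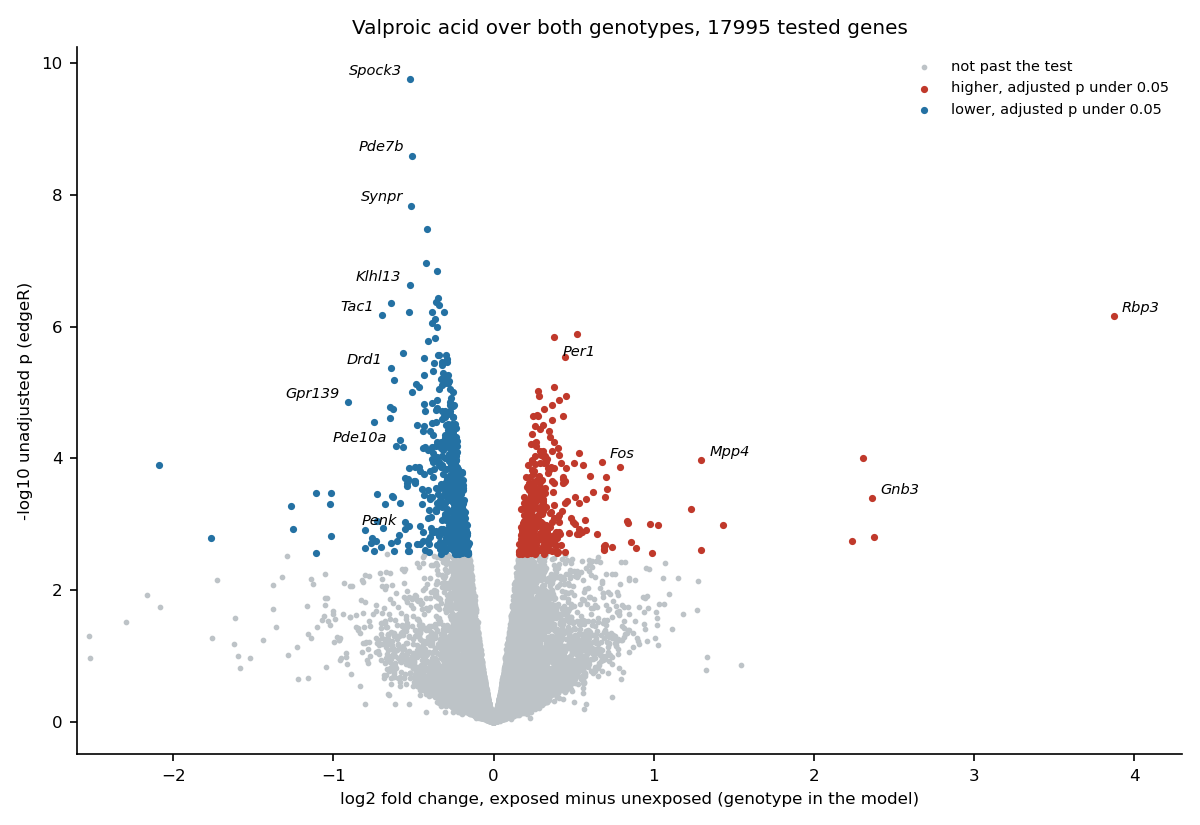
Each point is 1 of the 17995 tested genes, with the log2 fold change of exposed against unexposed libraries on the x axis and the negative log10 of the unadjusted p on the y axis. Red points are the 367 genes that rose and blue points the 653 that fell; Spock3, Pde7b and Synpr have the smallest p-values of those named, and 2 genes that did not pass the test lie beyond the x axis.

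The genes that changed differed in base composition. The median GC content of the longest annotated transcript was 55.8% for genes that rose, 43.3% for genes that fell and 49.7% for all tested genes. In the lowest of 5 equal bins of genes by GC content 4 rose and 356 fell, and in the highest bin 196 rose and 19 fell. The slope of a library's log2 deviations on GC content ran from -0.109 to 0.00358 per 10 percentage points in the unexposed libraries and from -0.0126 to 0.101 in the exposed ones. The ranges overlapped by 2 unexposed libraries, WT replicate 1 and KO replicate 1, and 1 exposed library, WT replicate 1. When each library was given an offset for GC content and length of transcripts, 279 of 17678 genes passed, 68 higher and 211 lower, and 231 of them were among the 1020 with the same sign. With the offset and without both libraries with low Xist 70 passed, 14 higher and 56 lower. The offset removes any biological difference that follows GC content together with any technical one, and these cannot be told apart. Values with this offset are called GC-adjusted.

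**Figure D2:**
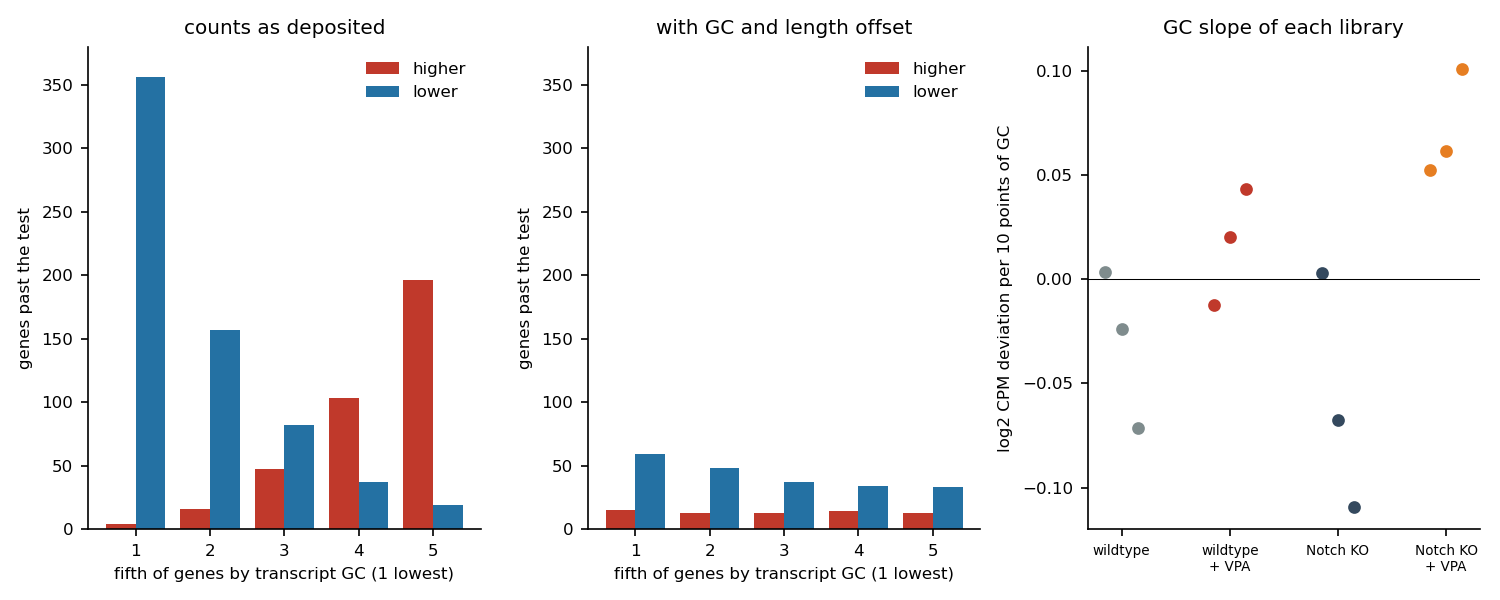
The bars count the genes past the test, red higher and blue lower, in each of 5 equal bins of tested genes by transcript GC content, from the counts as deposited (left, 356 lower in the lowest bin and 196 higher in the highest) and with the GC and length offset (middle). The points on the right give each library's slope of log2 CPM deviation on GC content, per 10 percentage points, which is highest at 0.101 in exposed knockout replicate 3 and lowest at -0.109 in unexposed knockout replicate 3.

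Striatal projection neuron genes were lower in the exposed libraries. Over 3 lists, for the direct pathway, the indirect pathway and markers that both share, 34 genes were tested, 33 had a negative log2 fold change, 17 fell and none rose, where 3.63% of all tested genes fell. The median log2 fold change was -0.36, against 0.009 over all tested genes. Within WT and KO the medians were -0.64 and -0.36 for the direct pathway and -0.64 and -0.26 for the indirect pathway. For the shared markers they were -0.45 and -0.22. In 7 of the 34 all 6 exposed libraries lay below all 6 unexposed ones, as in 2.07% of all tested genes.

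Of 8 direct pathway genes 4 fell and none rose (median log2 -0.54). Levels are in CPM, the counts of a gene scaled to library size. Tac1 (ENSMUSG00000061762), the precursor of substance P, was at 64.6 to 92.8 CPM (median 79.6) in the unexposed and 40.3 to 53.3 CPM (median 49.8) in the exposed libraries. Where 2 ranges are set against each other below, the unexposed libraries come first. The groups did not overlap, and the fall was 1.62-fold (log2 -0.69 ± 0.09 SE, edgeR adjusted p = 0.000781). Drd1 (ENSMUSG00000021478), the D1 dopamine receptor, was at 34.9 to 51.4 CPM (median 48.3) in the unexposed and 24.9 to 32.5 CPM (median 29.3) in the exposed libraries. It fell 1.56-fold with no overlap (log2 -0.64 ± 0.09 SE, adjusted p = 0.0022), and the unexposed library nearest the exposed ones was knockout replicate 3 at 34.9 CPM. Slc35d3, a vesicle protein that directs D1 receptor traffic, was at 8.19 to 10.2 against 4.95 to 8.58 CPM (log2 -0.63, adjusted p = 0.00429), and exposed knockout replicate 2 at 8.58 CPM lay within the unexposed range while the other 5 exposed libraries lay below it. Isl1, the transcription factor that specifies these neurons and also cholinergic ones, fell from a range of 2.98 to 4.17 CPM to one of 1.38 to 3.601 CPM (log2 -0.73, adjusted p = 0.0267), with exposed WT replicate 2 above the rest of its group. The GC-adjusted count was 3 of 8, the call on Isl1 being lost (adjusted p = 0.075), and 3 of 8 fell without both libraries with low Xist.

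The promoters of Tac1 and Drd1 are shown because these genes carry the direct pathway result. They are taken from RefSeq on GRCm38.p6, from 250 bases before to 50 bases after the annotated start, and read 5′ to 3′ on the strand of the gene. Tac1 lies on the plus strand at chr6:7554811-7555110 and Drd1 on the minus strand at chr13:54055609-54055908. Capitals mark an E-box (CACGTG) and a GC box (GGGCGG or its reverse complement).
Tac1: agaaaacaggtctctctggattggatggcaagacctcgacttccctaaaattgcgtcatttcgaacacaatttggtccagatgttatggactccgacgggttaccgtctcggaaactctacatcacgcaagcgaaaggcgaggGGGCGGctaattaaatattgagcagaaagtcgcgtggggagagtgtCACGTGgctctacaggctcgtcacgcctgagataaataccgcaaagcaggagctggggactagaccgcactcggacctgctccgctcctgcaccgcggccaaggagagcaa
Drd1: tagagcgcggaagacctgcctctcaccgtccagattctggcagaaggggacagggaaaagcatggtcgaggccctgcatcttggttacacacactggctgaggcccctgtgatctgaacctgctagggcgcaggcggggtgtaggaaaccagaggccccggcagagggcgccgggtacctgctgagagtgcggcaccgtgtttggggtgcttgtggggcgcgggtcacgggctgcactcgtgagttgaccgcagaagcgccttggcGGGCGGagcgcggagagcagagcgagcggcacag
The Tac1 window held 1 E-box and 1 GC box, and the Drd1 window held 1 GC box and no E-box. Among 32851 mouse promoters of this length, 7.15% held an E-box and 35.7% a GC box, counted on both strands. Promoters were found for 71.9% of the genes that rose and 76.7% of those that fell, under the 80% set for comparing motif shares between sets, so no such comparison is given.

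Of 7 indirect pathway genes 3 fell and none rose (median log2 -0.45). Penk (ENSMUSG00000045573), the precursor of enkephalin, was at 173 to 291 CPM (median 244) in the unexposed and 143 to 179 CPM (median 159.7) in the exposed libraries. The groups overlapped through unexposed knockout replicate 3 at 173 CPM, and Penk fell 1.47-fold (log2 -0.55 ± 0.13 SE, adjusted p = 0.031). Gpr6, a constitutively active receptor of these neurons, was at 11.2 to 23.1 against 9.24 to 13.2 CPM (log2 -0.73, adjusted p = 0.0162), with unexposed knockout replicate 3 again inside the exposed range. Sp9, a transcription factor needed for this lineage, was at 8.998 to 14.7 against 6.85 to 9.33 CPM (log2 -0.45, adjusted p = 0.0191). The pathway's defining receptors did not pass: Drd2, the D2 dopamine receptor, had a log2 fold change of -0.45 ± 0.16 SE (adjusted p = 0.128). Adora2a, an adenosine receptor, had -0.45 ± 0.15 SE (adjusted p = 0.125). In both genes the unexposed knockout libraries spanned the widest range, 24.1 to 43.7 CPM for Drd2 and 49.6 to 86.7 CPM for Adora2a, with replicate 1 high and replicate 3 low. The count was 3 of 7 after GC adjustment and 0 of 7 without both libraries with low Xist, where the median was -0.51.

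Of 19 genes shared by both pathways 10 fell and none rose (median log2 -0.33). Pde10a, the phosphodiesterase that degrades cyclic AMP and cyclic GMP in striatal neurons, was at 131 to 184 CPM (median 162) in the unexposed and 88.8 to 127 CPM (median 102) in the exposed libraries. It fell 1.53-fold with no overlap (log2 -0.61 ± 0.10 SE, adjusted p = 0.00756). Pde7b (ENSMUSG00000019990), a cyclic AMP phosphodiesterase, was at 38.1 to 46.3 CPM (median 44.6) in the unexposed and 27.1 to 31.8 CPM (median 31.3) in the exposed libraries. Its groups were tight and well apart, and the fall was 1.42-fold (log2 -0.51 ± 0.06 SE, adjusted p = 2.27e-05). Bcl11b and Foxp1, transcription factors of striatal projection neurons and of cortical neurons, fell by less and without overlap (log2 -0.24, adjusted p = 0.00714, and log2 -0.30, adjusted p = 0.00266). The RNA-binding protein gene Arpp21 (log2 -0.24) had no overlap either, and the retinoid receptor gene Rxrg (log2 -0.36), Rasd2 (-0.32), Syndig1l (-0.36) and Pde1b (-0.33) fell with overlap. The value of Rxrg averages log2 -0.63 within WT and -0.08 within KO. Ppp1r1b, which encodes the dopamine-regulated phosphatase inhibitor DARPP-32, was at 323 to 593 against 274 to 398 CPM and did not pass (log2 -0.47 ± 0.16 SE, adjusted p = 0.122). After GC adjustment 12 of 19 fell (median -0.39), and without both libraries with low Xist 9 of 19 fell (median -0.38).

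**Figure D3:**
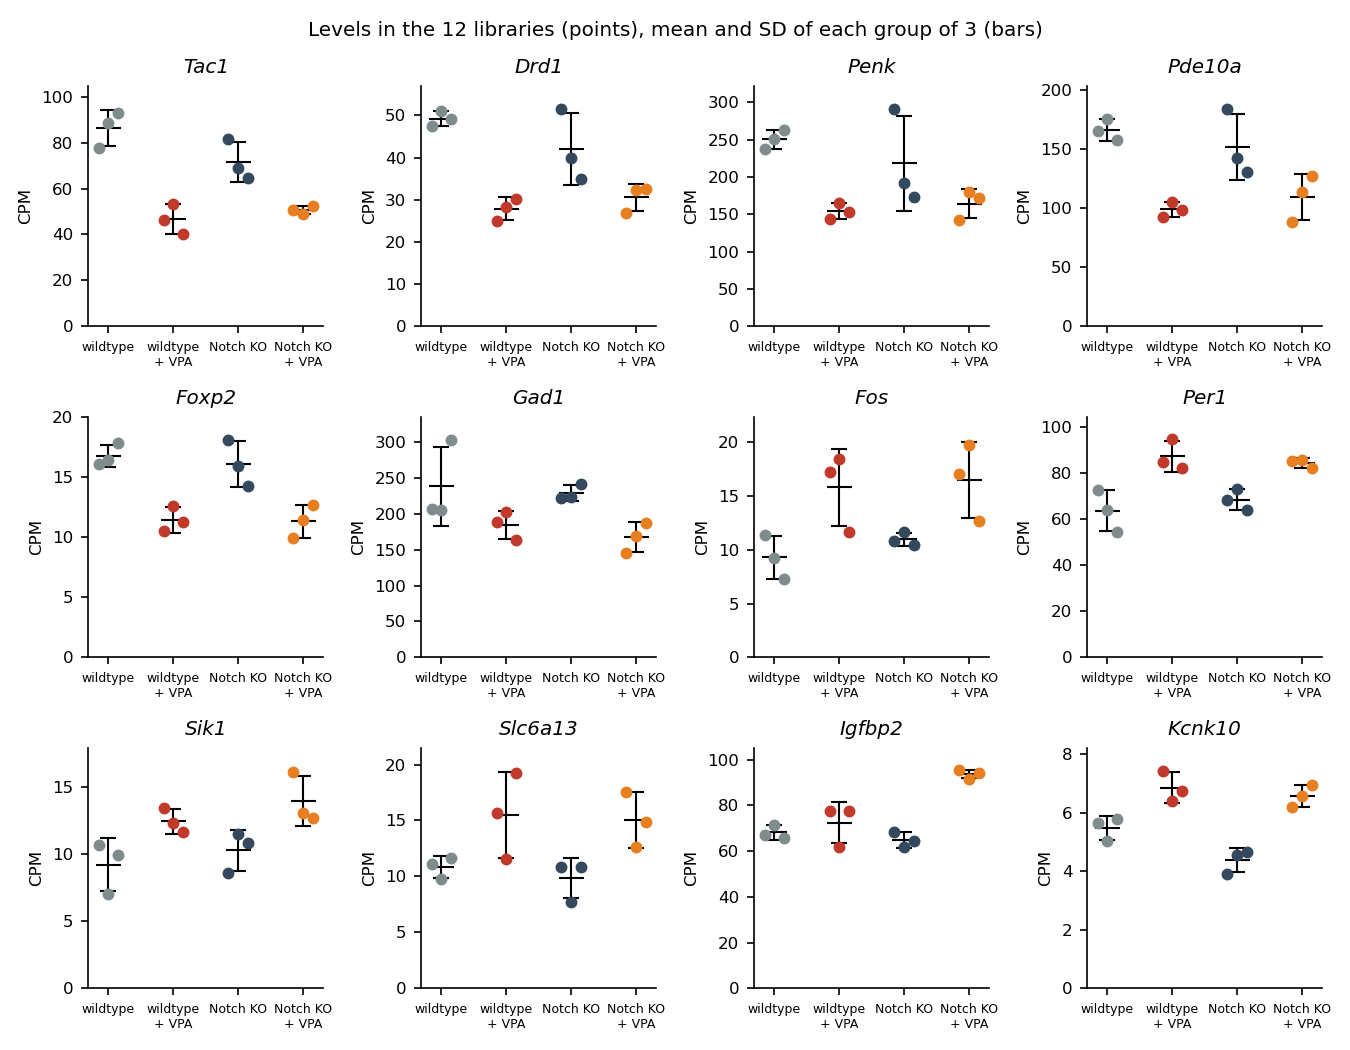
Each panel gives 1 gene in CPM in the 12 libraries, with the mean and SD of each group of 3; the y axis starts at 0. Tac1, Drd1, Pde10a, Foxp2 and Gad1 show every exposed library below every unexposed one and Penk a small overlap, and Fos, Per1, Sik1 and Kcnk10 show every exposed library above, while the exposed libraries of Slc6a13 and Igfbp2 overlap the unexposed range in wildtype.

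Several transcription factors of the ventral forebrain fell as well. Of 18 tested, 16 had a negative log2 fold change, 7 fell and none rose (median log2 -0.46). Foxp2 (ENSMUSG00000029563), a factor of striatal and deep cortical neurons linked to vocal learning, was at 14.3 to 18.1 CPM (median 16.3) in the unexposed and 9.94 to 12.7 CPM (median 11.3) in the exposed libraries. There was no overlap, and the fall was 1.44-fold (log2 -0.53 ± 0.08 SE, adjusted p = 0.000777). Dlx6, a homeobox factor of GABA neuron precursors, was at 6.16 to 11.5 CPM (median 8.12) in the unexposed and 4.90 to 5.55 CPM (median 5.51) in the exposed libraries. It fell 1.57-fold with no overlap (log2 -0.65 ± 0.12 SE, adjusted p = 0.00412), and exposed WT replicate 3 lay lowest at 4.90 CPM. Meis2 also fell without overlap (log2 -0.30, adjusted p = 0.0072), from a range of 147 to 187 CPM to one of 110.2 to 139 CPM. Nkx2-1, the factor of the medial ganglionic eminence, fell from a range of 0.883 to 1.91 CPM to one of 0.440 to 0.859 CPM (log2 -1.02, adjusted p = 0.0191), a low level, and Six3 had overlapping groups (log2 -0.53, adjusted p = 0.0294). Isl1 and Sp9, given above, were the others that fell and are also counted among the striatal genes. The list's mean level over its genes was 2.52 to 3.09 log2 CPM in the unexposed and 2.03 to 2.44 in the exposed libraries, with no overlap. Unexposed WT replicate 3 stood highest at 3.09. The count of genes that fell was 6 after GC adjustment, 3 without both libraries with low Xist and 1 with both changes, when the median was -0.56.

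Markers of olfactory bulb neurons also had negative values. All 12 tested had a negative log2 fold change with a median of -1.02, and 2 fell: Meis2, named above, and Synpr. Synpr (ENSMUSG00000056296), a synaptic vesicle protein also present in striatum and hippocampus, was at 157 to 207 CPM (median 173) in the unexposed and 112 to 138 CPM (median 124) in the exposed libraries and fell 1.43-fold without overlap (log2 -0.51 ± 0.06 SE, adjusted p = 8.66e-05). The markers most particular to the bulb had wide ranges and did not pass: Eomes, a factor of its mitral and tufted cells, was at 0.221 to 9.82 against 0.0811 to 0.967 CPM (log2 -3.25, adjusted p = 0.13). Th, which makes dopamine in its periglomerular cells, was at 2.29 to 16.9 against 0.966 to 4.35 CPM (log2 -1.62, adjusted p = 0.164). Eomes passed the filter on low counts through the unexposed libraries, so its negative value is a description only. The same holds for any other marker of the list that passed in this way. The list's mean level was 4.95 log2 CPM in unexposed WT replicate 3, 4.23 in unexposed knockout replicate 3 and 2.97 to 3.66 in the other 4 unexposed libraries, against 2.64 to 3.30 in the exposed ones. Leaving out 1 library at a time put the list's median between -1.19 and -0.49. The amount of olfactory bulb in each sample is not recorded, and its part in the ventral forebrain result was not tested.

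**Figure D4:**
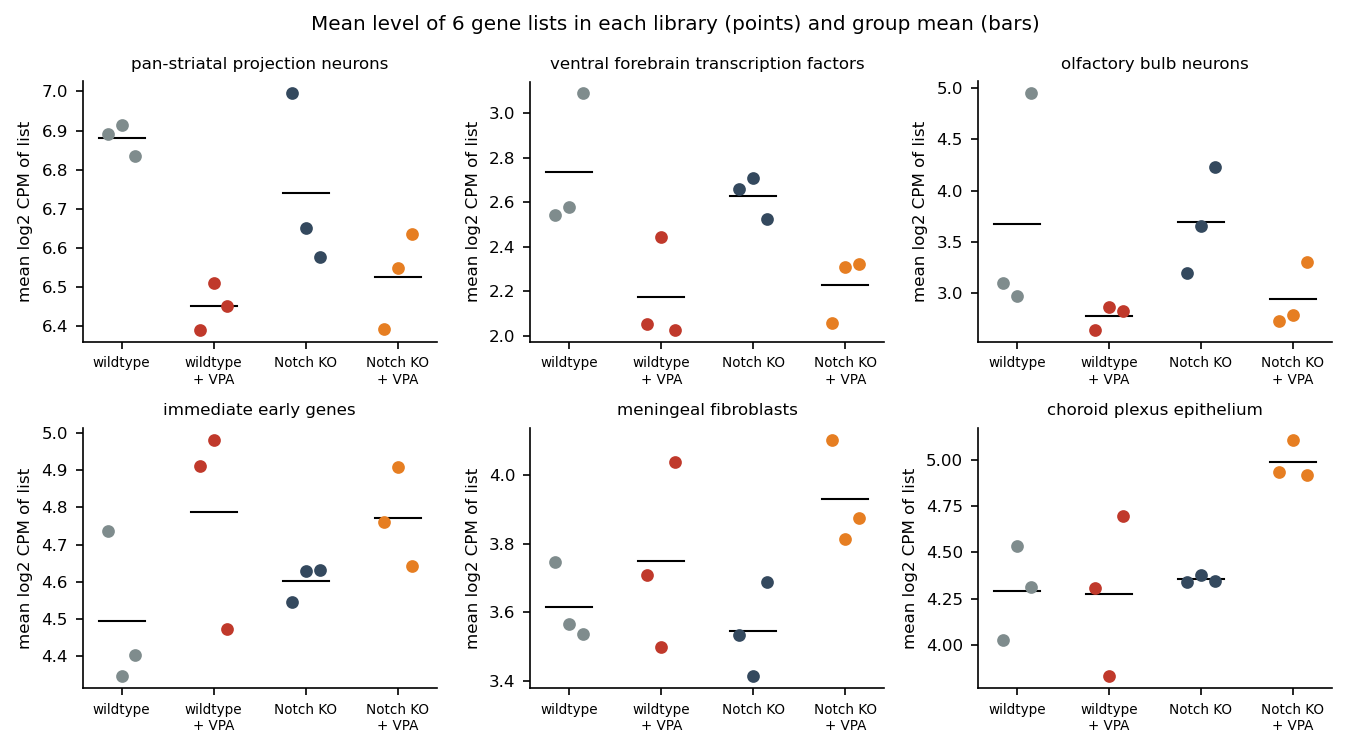
Each panel gives the mean log2 CPM over the tested genes of 1 list in each library, with a bar at the mean of each group of 3; the y axes do not start at 0. Ventral forebrain transcription factors show no overlap between unexposed (2.52 to 3.09) and exposed libraries (2.03 to 2.44), pan-striatal genes a small one, and choroid plexus markers are highest in the 3 exposed knockout libraries (4.92 to 5.11).

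Some deep cortical layer genes fell. Of 16 deep-layer markers 4 fell and none rose (median log2 -0.04), where 3.63% of all tested genes fell. The 4 were Foxp2, Syt6, Tle4 and Pcp4. Syt6, a synaptotagmin of deep-layer neurons, was at 23.9 to 34.9 CPM (median 29.2) in the unexposed and 16.0 to 22.2 CPM (median 18.4) in the exposed libraries. It fell 1.56-fold without overlap (log2 -0.64 ± 0.09 SE, adjusted p = 0.000775). Tle4, a corepressor of corticothalamic neurons, fell by less and also without overlap (log2 -0.24, adjusted p = 0.00875), and Pcp4, a calmodulin regulator, fell with overlap (log2 -0.21, adjusted p = 0.016, GC-adjusted -0.13, adjusted p = 0.195). Foxp2 and Pcp4 are expressed in striatum too. Against 2.04% of all tested genes, 1 of 14 upper-layer markers rose and none fell (median log2 0.13, with 0.18 within WT and -0.01 within KO). That gene was Cux2, a homeobox factor of the upper layers (log2 0.20, adjusted p = 0.042), and its GC-adjusted value was 0.08 (adjusted p = 0.514).

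A few genes for making and sensing GABA fell. Of 22 genes of interneurons and GABA synthesis 3 fell and none rose (median log2 -0.08), where 3.63% of all tested genes fell. Gad1, the main GABA-synthesising enzyme, was at 206 to 302 CPM (median 223) in the unexposed and 145 to 202 CPM (median 178) in the exposed libraries. It fell 1.33-fold without overlap (log2 -0.41 ± 0.10 SE, adjusted p = 0.0256), and unexposed WT replicate 3 stood above all others at 302 CPM. Gad2, the second such enzyme, fell with overlap (log2 -0.44, adjusted p = 0.0328) and was likewise highest in unexposed WT replicate 3. Cnr1, the cannabinoid receptor of GABA terminals, had a log2 of -0.22 (adjusted p = 0.0218). After GC adjustment 0 of the 22 passed (Gad1 log2 -0.40, adjusted p = 0.0606), and 0 passed without both libraries with low Xist.

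Where 3.63% of all tested genes fell, 4 of 19 genes of GABA receptors and chloride transport did and none rose (median log2 -0.11). Among them were the subunit genes Gabra4, typical of striatum, thalamus and hippocampus (96.6 to 114 against 81.8 to 94.98 CPM, log2 -0.29, adjusted p = 0.00266) and Gabra5 (log2 -0.28, adjusted p = 0.0096). Gabra4 showed no overlap between groups, and Gabra5 a narrow one. After GC adjustment 2 of the 19 fell, Gabra4 (-0.22, adjusted p = 0.0194) and Gabra5 (-0.25, adjusted p = 0.0245). With the adjustment and without both libraries with low Xist 0 of the 19 passed.

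The smallest p-value of all belonged to Spock3, which was named after its values were seen. Spock3 (ENSMUSG00000054162), a secreted proteoglycan of the testican family, was at 114 to 142 CPM (median 132) in the unexposed and 83.4 to 96.2 CPM (median 91.8) in the exposed libraries. It fell 1.43-fold, with a wide gap between the groups (log2 -0.52 ± 0.05 SE, adjusted p = 3.13e-06). Klhl13, an X-linked adaptor of a ubiquitin ligase also named after its values were seen, was at 50.4 to 66.8 CPM (median 55.6) in the unexposed and 33.9 to 43.5 CPM (median 40.2) in the exposed libraries. The exposed libraries lay below all unexposed ones (log2 -0.52 ± 0.07 SE, adjusted p = 0.000595). Mzt1, a small part of the complex that nucleates microtubules and chosen in the same way, was lower after exposure within each genotype (log2 -0.37 in WT and -0.32 in KO, over both -0.35, adjusted p = 0.000775). It was at 83.3 to 121 CPM in the 6 WT libraries and at 40.7 to 57.0 CPM in the 6 KO libraries.

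Several of the largest falls were in receptors and transmitter enzymes at low levels. Gpr139, an orphan receptor of the habenula and striatum, was at 2.45 to 4.04 CPM (median 2.76) in the unexposed and 0.909 to 2.09 CPM (median 1.81) in the exposed libraries. It fell 1.88-fold without overlap (log2 -0.91 ± 0.17 SE, adjusted p = 0.00396). Chat, which makes acetylcholine and marks cholinergic neurons, fell from a range of 2.03 to 4.43 CPM to one of 1.14 to 2.66 CPM with overlap (log2 -0.76, adjusted p = 0.0399). Chrm2, a muscarinic acetylcholine receptor named after its values were seen, also fell with overlap (log2 -0.63, adjusted p = 0.017). The neurokinin receptor gene Tacr3 (1.80 to 2.82 against 1.02 to 1.80 CPM) fell without overlap (log2 -0.68, adjusted p = 0.0191). The bombesin receptor gene Nmbr (log2 -0.76) and the serotonin receptor gene Htr1d (-0.70) fell with overlap. Cd4, the coreceptor of helper T cells, fell without overlap from a range of 9.37 to 15.8 CPM to one of 6.42 to 9.25 CPM (log2 -0.64 ± 0.12 SE, adjusted p = 0.00484). After GC adjustment Gpr139, Tacr3, Chrm2 and Cd4 passed, and Chat (adjusted p = 0.0535), Nmbr (0.0933) and Htr1d (0.0793) did not. Without both libraries with low Xist, Gpr139 and Cd4 passed, and Tacr3 (adjusted p = 0.111), Chrm2 (0.105), Chat (0.113), Nmbr (0.0658) and Htr1d (0.227) did not.

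Among the genes that rose were activity-dependent ones. Of 26 immediate early genes, which neurons switch on within minutes of activity, 21 had a positive log2 fold change, 3 rose and none fell (median log2 0.22). Fos (ENSMUSG00000021250), a subunit of the AP-1 transcription factor, was at 7.30 to 11.7 CPM (median 10.6) in the unexposed and 11.7 to 19.8 CPM (median 17.1) in the exposed libraries. It rose 1.60-fold (log2 0.68 ± 0.13 SE, adjusted p = 0.00987), and the lowest exposed library, WT replicate 3, lay just above the highest unexposed one, both at 11.7 CPM when rounded. Egr4, a zinc finger factor, rose with overlap (log2 0.38, adjusted p = 0.0139), as did Fosl2 (0.25, adjusted p = 0.0246). Arc, a regulator of AMPA receptor traffic, had the largest value of the list at log2 0.74 ± 0.28 SE and did not pass (adjusted p = 0.161), with 97.2 to 257 against 191 to 417 CPM. Nr4a1 had 0.48 (adjusted p = 0.0708) and Npas4 0.58 (adjusted p = 0.213). Both libraries with low Xist had the lowest list means of their groups, 4.47 and 4.64 log2 CPM against 4.76 to 4.98 in the other 4 exposed libraries and 4.35 to 4.74 in the unexposed ones. Without them 5 of 26 rose (median 0.33), and after GC adjustment 1 of 26 did (Fos, log2 0.66, adjusted p = 0.0357).

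Clock and stress genes changed singly. Of 22 circadian clock genes 2 rose and 1 fell (median log2 0.05), where 2.04% of all tested genes rose and 3.63% fell. Per1 (ENSMUSG00000020893), a clock repressor that is also induced by neuronal activity and by glucocorticoids, was at 54.7 to 73.1 CPM (median 66.1) in the unexposed and 82.2 to 94.8 CPM (median 85.3) in the exposed libraries. It rose 1.3-fold without overlap (log2 0.38 ± 0.06 SE, adjusted p = 0.00122). The nuclear receptor gene Nr1d1 rose (log2 0.22, adjusted p = 0.014) and its paralogue Nr1d2 fell (-0.19, adjusted p = 0.0265); neither passed after GC adjustment (0.137 and 0.165). The labels give no time of day for sampling. Of 19 glucocorticoid and stress response genes 4 rose and 1 fell (median log2 -0.003). Besides Per1 these were Nfkbia, an inhibitor of NF-kB (log2 0.36, adjusted p = 0.0107), Ddit4, an inhibitor of mTOR signalling (0.35, adjusted p = 0.0108), Zbtb16 (0.30, adjusted p = 0.0176) and, lower, Klf9 (-0.16, adjusted p = 0.0424). The classical glucocorticoid targets Fkbp5 (log2 -0.13, adjusted p = 0.408), Tsc22d3 (-0.06, 0.736) and Sgk1 (0.28, 0.326) did not pass. After GC adjustment Klf9 fell and 2 of the 19 rose, Per1 (log2 0.26, adjusted p = 0.0188) and Nfkbia (0.36, 0.023).

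The promoters of Fos and Per1 are shown as those of the genes that carry the activity and clock results, from the same RefSeq windows, at chr12:85473640-85473939 and chr11:69098699-69098998, both on the plus strand.
Fos: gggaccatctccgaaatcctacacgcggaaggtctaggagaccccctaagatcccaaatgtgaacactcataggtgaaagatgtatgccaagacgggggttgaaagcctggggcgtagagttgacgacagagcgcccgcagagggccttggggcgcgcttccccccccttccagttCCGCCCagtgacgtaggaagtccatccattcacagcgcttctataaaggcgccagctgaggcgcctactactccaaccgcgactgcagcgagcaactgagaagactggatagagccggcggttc
Per1: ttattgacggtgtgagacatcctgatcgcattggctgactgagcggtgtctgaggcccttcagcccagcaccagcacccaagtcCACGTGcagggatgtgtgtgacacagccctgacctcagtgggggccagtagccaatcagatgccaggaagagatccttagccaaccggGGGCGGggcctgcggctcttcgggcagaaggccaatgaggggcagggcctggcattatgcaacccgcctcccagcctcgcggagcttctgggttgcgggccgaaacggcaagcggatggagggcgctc
Capitals mark the motifs named above for Tac1 and Drd1, found on either strand. The Fos window held 1 GC box, and the Per1 window held 1 E-box and 1 GC box. Neither held the full cyclic AMP response element (TGACGTCA), which 1.79% of the 32851 promoters held, nor an AP-1 site (TGANTCA), which 7.81% held.

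A pair of genes that rose with roles in metabolism were named after their values were seen. Sik1, a kinase induced by cyclic AMP, was at 7.01 to 11.5 CPM (median 10.3) in the unexposed and 11.6 to 16.1 CPM (median 12.9) in the exposed libraries. It rose 1.35-fold without overlap (log2 0.43 ± 0.10 SE, adjusted p = 0.0133). Acacb, the mitochondrial acetyl-CoA carboxylase, was at 4.02 to 6.76 CPM (median 5.88) in the unexposed and 6.92 to 8.92 CPM (median 7.43) in the exposed libraries. It rose 1.35-fold, also without overlap (log2 0.43 ± 0.11 SE, adjusted p = 0.0219). Neither passed after GC adjustment (adjusted p = 0.0832 for Sik1 and 0.205 for Acacb). Without both libraries with low Xist Sik1 passed (adjusted p = 0.0365) and Acacb did not (0.0803).

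Some genes of the meninges rose. Of 15 meningeal fibroblast markers 14 had a positive log2 fold change, 5 rose and none fell (median log2 0.29). The medians were 0.15 within WT and 0.40 within KO. The list's mean level in exposed WT replicates 1 and 2 was 3.71 and 3.50 log2 CPM, within the unexposed range of 3.41 to 3.75. In the other exposed libraries it was 3.81 to 4.10. Slc6a13, a GABA and taurine transporter of the leptomeninges, was at 7.75 to 11.7 CPM (median 10.9) in the unexposed and 11.6 to 19.2 CPM (median 15.3) in the exposed libraries. Its groups overlapped through exposed WT replicate 2 at 11.6 CPM, and the rise was 1.47-fold (log2 0.56 ± 0.12 SE, adjusted p = 0.0103). Aldh1a2, which makes retinoic acid, was at 6.85 to 11.9 against 11.5 to 19.9 CPM (log2 0.57, adjusted p = 0.0264), also with the exposed WT replicate 2 in the unexposed range. The transporter genes Slc6a20a (log2 0.41, adjusted p = 0.00875) and Slc13a4 (0.38, adjusted p = 0.0195) rose too. Igfbp2, which binds insulin-like growth factors and is made in meninges and choroid plexus, was at 61.7 to 71.6 CPM (median 66.4) in the unexposed and 62.0 to 95.4 CPM (median 84.7) in the exposed libraries. Its rise (log2 0.31 ± 0.08 SE, adjusted p = 0.0221) came with values of 91.7 to 95.4 CPM in the exposed knockout and 62.0 to 77.6 CPM in the exposed WT libraries. After GC adjustment 3 of 15 rose, and without both libraries with low Xist 0 of 15 did (median 0.20).

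Choroid plexus markers, of the epithelium that makes cerebrospinal fluid, had positive values in 16 of 16 genes (median log2 0.35) and 0 passed. The medians were -0.03 within WT and 0.62 within KO. The list's mean level was 4.92 to 5.11 log2 CPM in the exposed knockout libraries and 3.83 to 4.70 in the other 9, the exposed WT libraries included. Ttr, the transthyretin gene that dominates this epithelium, had 1223 to 1901 against 1267 to 2929 CPM (log2 0.39 ± 0.18 SE, adjusted p = 0.236). How much choroid plexus or meninges each sample held is not recorded, and its part in the meningeal result was not tested.

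**Figure D5:**
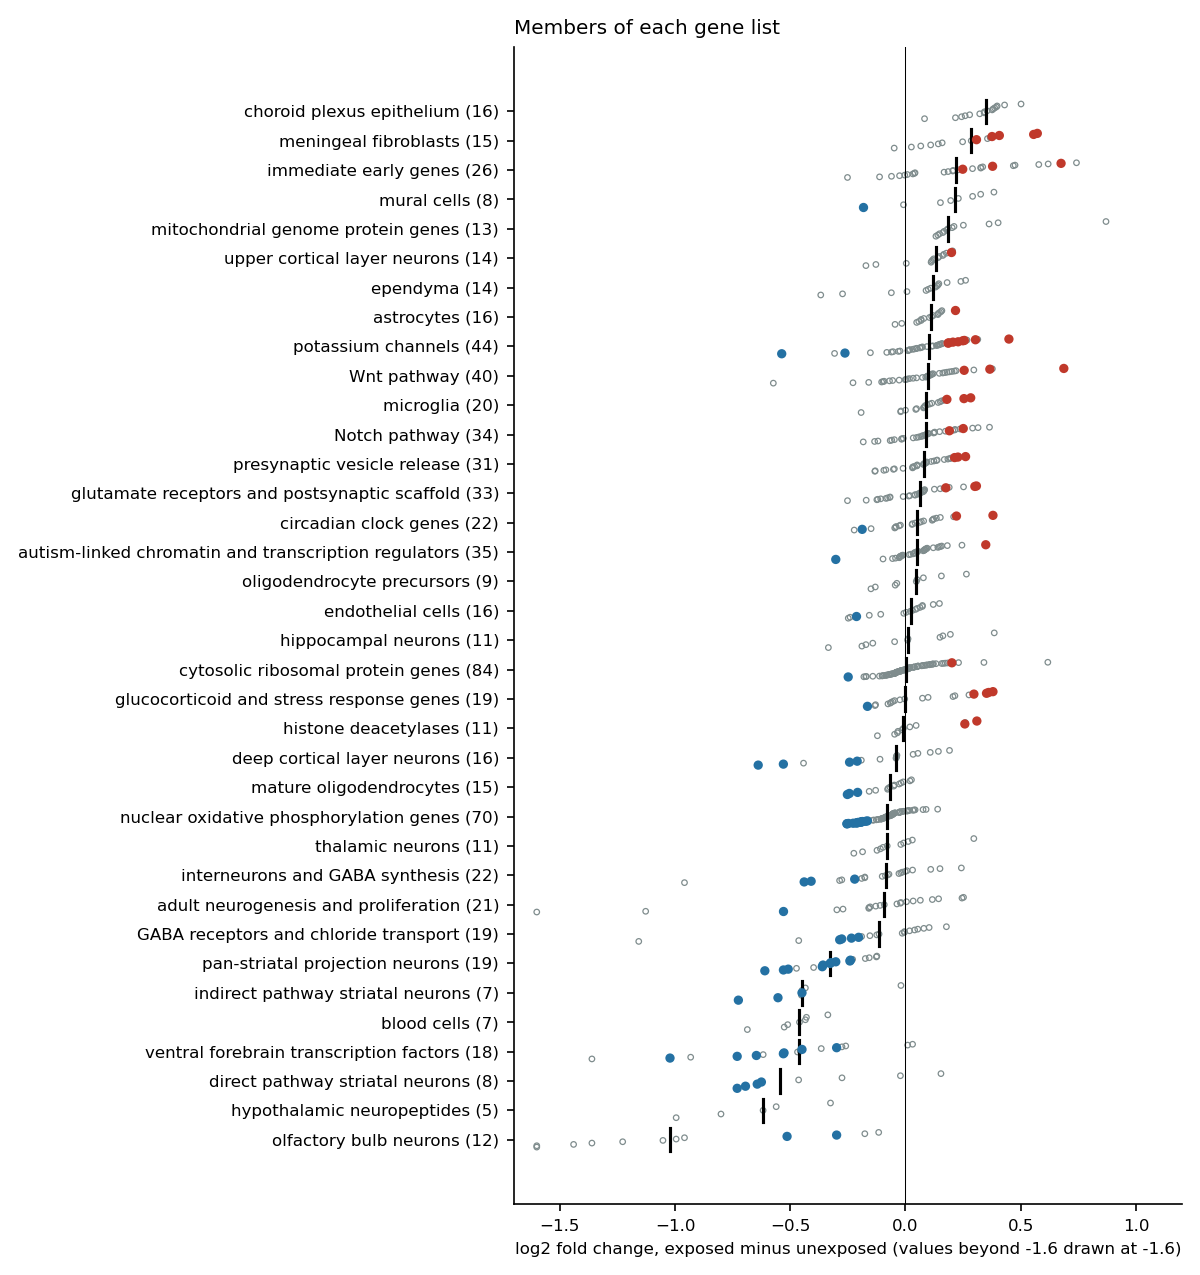
Each row is 1 list, with the number of tested genes in brackets and lists ordered by their median (black bar), which runs from -1.02 for olfactory bulb neurons to 0.35 for choroid plexus epithelium. Points are genes at their log2 fold change of exposed against unexposed libraries, filled red where they rose, filled blue where they fell and open where they did not pass; the lists of striatal genes hold 17 blue points and no red one.

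Most genes of histone deacetylases, a family that holds the enzymes valproic acid inhibits, did not pass the test. Of 11 histone deacetylase genes 2 rose and none fell (median log2 -0.009), where 2.04% of all tested genes rose. The 11 include genes outside class I and class IIa, Hdac6 among them. The class I genes Hdac1 (log2 -0.02 ± 0.06 SE), Hdac2 (-0.12 ± 0.05), Hdac3 (0.02 ± 0.05) and Hdac8 (-0.01 ± 0.07) did not pass, with adjusted p-values of 0.927, 0.193, 0.869 and 0.963. Hdac6, a cytoplasmic tubulin deacetylase on the X chromosome, was at 31.9 to 37.9 against 39.7 to 45.5 CPM and rose without overlap (log2 0.26, adjusted p = 0.00879). Hdac7, of class IIa, rose with overlap (log2 0.31, adjusted p = 0.0352). Neither passed after GC adjustment (0.0547 and 0.27).

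Where 2.04% of all tested genes rose, 2 of 34 Notch pathway genes rose and none fell (median log2 0.09). They were the ligand gene Jag2 (29.6 to 38.2 against 38.3 to 42.3 CPM, log2 0.25, adjusted p = 0.0173) and the fringe glycosyltransferase gene Rfng (log2 0.19, adjusted p = 0.036), both without overlap. The receptor genes Notch1 (log2 0.03), Notch2 (0.24), Notch3 (0.29) and Notch4 (0.22) did not pass (adjusted p = 0.855, 0.0987, 0.167 and 0.28). Htr3a, the serotonin receptor subunit named in the genotype label, was at 3.42 to 10.6 against 5.19 to 10.9 CPM (log2 0.24 ± 0.11 SE, adjusted p = 0.198). After GC adjustment 0 of the 34 Notch pathway genes passed. Of 40 Wnt pathway genes 3 rose and none fell (median log2 0.10): the receptor gene Fzd4 (12.9 to 15.2 against 15.3 to 21.3 CPM, log2 0.37, adjusted p = 0.00815), the ligand gene Wnt2b (0.69, adjusted p = 0.0453) and the scaffold gene Dvl2 (0.25, adjusted p = 0.0371). Fzd4 showed no overlap and passed after GC adjustment (log2 0.34, adjusted p = 0.0228), and the other two did not.

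Genes of ion channels and synapses rose in small numbers, and few of them passed after GC adjustment. Of 44 potassium channel genes 8 rose and 2 fell (median log2 0.10), where 2.04% of all tested genes rose and 3.63% fell. Kcnk10, a background tandem-pore channel, was at 3.91 to 5.78 CPM (median 4.84) in the unexposed and 6.19 to 7.42 CPM (median 6.65) in the exposed libraries. It rose 1.36-fold without overlap (log2 0.45 ± 0.10 SE, adjusted p = 0.0136). Kcnj9 (log2 0.26), a subunit of G protein-gated channels, also rose, and Kcnd2, which carries the A-type current, fell (-0.26, adjusted p = 0.016). The counts became 2 higher and 1 lower after GC adjustment, and 0 higher and 1 lower without both libraries with low Xist.

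Where 2.04% of all tested genes rose, 3 of 31 presynaptic genes did and none fell (median log2 0.08). These were the vesicle priming gene Unc13a (222 to 263 against 279 to 308 CPM, log2 0.26, adjusted p = 0.00552), the P/Q-type calcium channel gene Cacna1a (0.21) and the vesicular glutamate transporter gene Slc17a7 (0.23), all without overlap. Of 33 glutamate receptor and postsynaptic genes 3 rose and none fell (median log2 0.06), among them the receptor genes Grin2d (log2 0.31) and Grm2 (0.30). After GC adjustment 0 of the 31 and 0 of the 33 passed, with Unc13a at log2 0.13 (adjusted p = 0.112). Near the shares of all tested genes (2.04% rose, 3.63% fell), 1 of 35 autism-linked chromatin and transcription regulators rose and 1 fell (median log2 0.05). They were the histone demethylase gene Kdm6b (log2 0.35, adjusted p = 0.00601) and Foxp1, named above. After GC adjustment Kdm6b did not pass (log2 0.21, adjusted p = 0.123) and Foxp1 did.

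Among nuclear genes of oxidative phosphorylation 60 of 70 had a negative log2 fold change, 14 fell and none rose, with a median of -0.08. Examples are the complex I genes Ndufs4 (97.8 to 113 against 81.5 to 97.4 CPM, log2 -0.25, adjusted p = 0.00597) and Ndufv2 (-0.25), the complex III gene Uqcrc2 (-0.21) and the ATP synthase gene Atp5f1 (-0.25), each without overlap. After GC adjustment 3 of 70 fell, with Ndufs4 at -0.14 (adjusted p = 0.119), and without both libraries with low Xist 3 of 70 fell. The 13 protein genes of the mitochondrial genome had positive values (median log2 0.18) and 0 passed, with exposed knockout replicate 1 highest at a list mean of 11.4 log2 CPM against 10.5 to 11.1 in the other 11. After GC adjustment their median was 0.36 and 2 of the 13 rose, and 1 did when both libraries with low Xist were also left out. Of 84 cytosolic ribosomal protein genes, whose reads near-identical pseudogenes can share, Rps28 rose (log2 0.20) and Rpl22l1 fell (-0.25), with a median of 0.0009. That median averages values of opposite sign, -0.11 within WT and 0.10 within KO. After GC adjustment 5 of the 84 rose and none fell (Rpl22l1 -0.14, adjusted p = 0.203), and with the adjustment and without both libraries with low Xist 0 passed.

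Among glial and vascular markers few genes passed in any list. Over all tested genes 2.04% rose and 3.63% fell, and a single gene in a list of this size is near that share. Of 15 mature oligodendrocyte markers Mal, Ermn and Ugt8a fell (median log2 -0.07), and Mal, a proteolipid of myelin, did so without overlap (246 to 279.9 against 201 to 232 CPM, log2 -0.25 ± 0.05 SE, adjusted p = 0.00552). After GC adjustment Mal alone of the 15 passed, Ermn being at -0.14 (adjusted p = 0.238) and Ugt8a at -0.11 (0.359). Of 20 microglia markers Laptm5 (log2 0.28), Siglech (0.25) and Csf1r (0.18) rose (median log2 0.09), and after GC adjustment Siglech alone of the 20 passed (log2 0.31, adjusted p = 0.0176). One of 16 astrocyte markers rose (Atp1b2, log2 0.22), one of 16 endothelial markers fell (Itm2a, -0.22) and one of 8 mural markers fell (Rgs5, -0.18). None of these 3 passed after GC adjustment. Of 21 genes of neurogenesis and proliferation 1 fell, Igfbpl1, a gene of newborn neurons (log2 -0.53, adjusted p = 0.047), where 3.63% of all tested genes fell, and after GC adjustment 0 of the 21 passed (Igfbpl1 adjusted p = 0.0512). None passed among 9 oligodendrocyte precursor, 14 ependymal, 7 blood, 11 thalamic, 5 hypothalamic and 11 hippocampal genes, with list medians of 0.05, 0.12, -0.46, -0.08, -0.62 and 0.01.

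The largest rises by the fitted value, at a mean of at least 1 CPM, were mostly in genes at low levels. Adam33, a metalloprotease of mesenchymal cells, was at 2.52 to 5.57 CPM (median 4.35) in the unexposed and 5.81 to 7.83 CPM (median 6.66) in the exposed libraries. It rose 1.62-fold without overlap (log2 0.70 ± 0.16 SE, adjusted p = 0.0128). Tnfrsf18 (log2 0.74), Nudt6 (0.70), Mapk15 (0.70) and Igfn1 (0.69) rose without overlap, and Steap1 (0.65), Myo5c (0.62), Fam83h (0.58), Aspg (0.53) and the haematopoietic receptor gene Flt3 (0.53) rose with overlap. Rtl1, an imprinted gene derived from a retrotransposon, rose with overlap from a range of 3.16 to 6.17 CPM to one of 5.99 to 7.73 CPM (log2 0.60, adjusted p = 0.0127). An antisense transcript is known at its locus, and whether the counting used strand is not stated in the labels. After GC adjustment Adam33 (adjusted p = 0.0428), Steap1 (0.0395) and Myo5c (0.0494) passed, and the other 8 of these 11 did not. Without both libraries with low Xist, Myo5c and Flt3 passed and the other 9 did not, among them Adam33 (adjusted p = 0.0588) and Steap1 (0.195).

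For the lists not yet described without both libraries with low Xist, the counts were as follows. Of the deep cortical genes 3 fell, of the GABA receptor genes 2, of the olfactory bulb genes 2, of the mature oligodendrocyte markers 1 and of the neurogenesis genes 1. Of the clock genes 3 rose and none fell, and of the glucocorticoid and stress genes 2 rose and 1 fell. One presynaptic, one Wnt pathway and one autism-linked gene rose, and one autism-linked gene fell. None passed among the upper-layer, histone deacetylase, Notch pathway, glutamate receptor, microglia, astrocyte, endothelial, mural, choroid plexus and ribosomal protein genes.

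The averaged effect was set beside the effect in each genotype. In WT alone 37 genes rose and 124 fell, 0.895% of the tested genes together, and in KO alone 3 rose and 7 fell (0.0389%), 0.0556% together. The comparisons in one genotype use 3 libraries against 3 and share their libraries with the averaged one, which uses 6 against 6. Of the 161 genes past the test in WT, 154 (95.7%) had the same sign in KO, where the 2 effects share no library. Over all tested genes the share was 62.7%. Both comparisons carry the difference in GC slope between exposed and unexposed libraries, and each includes an exposed library with low Xist. Their part in the shared signs was not tested. The median size of those 161 was 0.39 in WT, where they were chosen, and 0.20 in the same direction in KO. For the 10 genes past the test in KO it was 0.47 in KO, where they were chosen, and 0.29 in WT. Tac1 had log2 -0.89 in WT and -0.50 in KO, Drd1 -0.82 and -0.46, Foxp2 -0.55 and -0.51, and Fos 0.77 and 0.58. No gene passed the edgeR test of the difference between the genotypes' effects, with 1075 (5.97%) at an unadjusted p under 0.05 and 0 in DESeq2. The 5 smallest p-values were those of Rxrg (KO minus WT effect 0.55 ± 0.13 SE), Nucks1 (-0.41 ± 0.09), Gm4149 (1.24 ± 0.27), Slc22a2 (1.83 ± 0.44) and Cldn2 (1.12 ± 0.25). The adjusted p was 0.833 for all 5 of them.

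Of the named genes, 15 passed in each of 27 other settings at the same threshold on the adjusted p, among them other scalings and tests, each library left out, both libraries with low Xist left out and the GC and length offset. The 13 that fell were Tac1, Drd1, Slc35d3, Pde7b, Bcl11b, Foxp2, Syt6, Synpr, Spock3, Klhl13, Gpr139, Cd4 and Mal, and the 2 that rose were Fos and Per1. A further setting that also asked for a log2 change of 0.5 or more is not among the 27, and Per1 (0.38), Mal (-0.25) and Bcl11b (-0.24) do not reach that size. Over those 27 settings the log2 fold change ranged from -0.75 to -0.56 for Tac1, from -0.72 to -0.59 for Drd1, from 0.60 to 0.84 for Fos and from 0.26 to 0.42 for Per1. Spock3, Klhl13, Gpr139 and Cd4 are in none of the lists. The settings fit the same libraries again, in whole or in large part, and are not independent of the main test.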

How the data were processed

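RNA from brain tissue of 12 libraries, 3 in each of 4 groups, was depleted of ribosomal RNA and made into libraries with an NEBNext kit, per the labels' protocols. The authors deposited raw counts per gene, with 56748 genes in 1 table. HISAT2 and the genome build GRCm39 (mm39) are named in the submitters' processing notes; for the counting program, the annotation and the use of strand nothing is given in the sources used here. Symbols came from GENCODE M21 on GRCm38 and were found for 52125 genes, which hold 99.53% of the counts.

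Groups came from the genotype and treatment labels. Genes were kept by edgeR's filterByExpr on the 4 groups (17995 genes), scaled by TMM (factors 0.930 to 1.02) and tested with the robust quasi-likelihood test of edgeR 4.0.16 in R 4.3.3, with genotype and treatment as terms and Benjamini-Hochberg adjustment at 0.05. CPM are counts scaled to the TMM-scaled library size, and log2 CPM for list means used a prior count of 2. Alternatives used limma 3.58.1 and DESeq2 1.42.0, other scalings and filters, a sex term, and each library left out. The offset for GC content and transcript length was chosen after seeing the data. The procedure was tested on simulated data.

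The members and gene lists were chosen with earlier results of these data known. Genes were named by a rule: the 15 largest changes each way past the test at a mean of at least 1 CPM with the same sign in both genotypes, up to 4 genes per list with the smallest p, the 5 smallest interaction p-values and a fixed set (Tac1, Drd1, Drd2, Penk, Pde10a, Ppp1r1b, Hdac1, Hdac2, Hdac3, Hdac8, Per1, Fos, Notch1 and Htr3a). Predicted and unnamed genes were left out of the largest changes. It gave 110 genes, of which the text gives those it describes; others are said to have been named after their values were seen, or belong to a list. Total counts of 16887885 to 24944681 set the counting precision. The main fit did not use replicate numbers as pairs. Results for some genes are not reported here.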

Additional observations from a re-analysis of the deposited data

Results flagged for a closer look

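In each group of 6 exposed or 6 unexposed libraries, the library furthest from the rest was tested against Dixon's critical value of 0.625. Of 338 groups tested, 23 held such a library, or 6.81%. The critical value corresponds to about 1 in 20 for independent draws from a single normal distribution. These groups mix both genotypes and some items share genes, so that rate is not a chance share for them.

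Unexposed WT replicate 3 stood above the other unexposed libraries for Gad1 (302 CPM), Gad2 (143 CPM), Meis2 (187 CPM) and Sp9 (14.7 CPM). It was also highest in the mean of the ventral forebrain transcription factors (3.09 log2 CPM) and of the thalamic genes (3.57 log2 CPM), and lowest for Fzd4 (12.9 CPM). Unexposed WT replicate 1 was high for Notch1 (19.997 CPM) and unexposed WT replicate 2 for Steap1 (3.64 CPM). Unexposed KO replicate 2 was high for Kcnk9 (61.5 CPM) and Flt3 (4.68 CPM) and low for Aldh1a2 (6.85 CPM).

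Exposed WT replicate 2 was high for Isl1 (3.601 CPM) and Per1 (94.8 CPM), and exposed WT replicate 3 low for Dlx6 (4.90 CPM). Exposed KO replicate 1 was low for Pde7b (27.1 CPM) and high for Rtl1 (7.73 CPM) and Mapk15 (4.03 CPM). Exposed KO replicate 2 was high for Slc35d3 (8.58 CPM) and Gnb3 (3.12 CPM) and low in the mean of the mural cell markers (3.66 log2 CPM). Exposed KO replicate 3 was high for Eomes (0.967 CPM) and in the mean of the olfactory bulb genes (3.30 log2 CPM).

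Y-linked genes, which no comparison uses, had counts in 2 exposed libraries alone, beyond 2 counts. In replicate 3 of exposed WT and exposed KO, Ddx3y had 829 and 925 counts and Eif2s3y 605 and 661. Kdm5d had 377 and 447 counts and Uty 180 and 227 in the same libraries. The labels give no sex, and these counts are those of male tissue.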

How the results depend on the processing

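Over both genotypes 1020 genes passed, of which 36.0% were higher. The count was 202 with a sex term, 224 (23.7% higher) without both libraries with low Xist and 100 when a log2 change of 0.5 or more was also asked for. It was 279 (24.4% higher) with the GC and length offset and 70 (20% higher) with the offset and without both libraries with low Xist. Leaving out 1 library gave 429 to 1227, with 429 without WT replicate 3, 492 without exposed WT replicate 3, 598 (25.8% higher) without KO replicate 3, 663 without exposed KO replicate 1 and 665 without exposed KO replicate 3. In WT alone the count of 161 became 512 without a filter on low counts, 333 in DESeq2, 40 without both libraries with low Xist, 81 with the offset and 14 to 225 with 1 library left out. In KO alone the count of 10 became 391 without a filter, 193 in DESeq2, 2 with the offset and 2 to 162 with 1 library left out. For the difference between genotypes the count of 0 became 5 without a filter, 4 without both libraries with low Xist and 0 to 1 with 1 library left out. With fewer libraries or genes tested each count rests on less data, and otherwise the cause was not tested.

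Replicate numbers are shared between groups, and 18 same-numbered pairs correlated from -0.12 to 0.17, with 3 of them above 0.1. These 3 were the pairs of unexposed WT with unexposed KO libraries (0.12, 0.14 and 0.17). Pairs with different numbers reached 0.19, for exposed WT replicate 3 with exposed KO replicate 1. The median was 0.02 for same-numbered pairs and -0.008 for the others. Whether the numbers stand for a pairing or a batch among the unexposed libraries was not tested. A replicate block gave 896 genes over both genotypes, 115 in WT, 6 in KO and 0 for the difference. Of 12 libraries 7 correlated best with their own number, among them all 6 unexposed ones. The named genes past the test, those chosen after their values were seen included, number 110 too and all kept their sign in every setting. They are not the same set as the 110 named by the rule, some of which did not pass. This set was taken as the genes past the test in these libraries, which every setting fits again in whole or in large part. A kept sign was therefore close to fixed in advance. Counting noise limits genes near 1 CPM, and 3 libraries in each group limit the rest.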

Other observations

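A few genes best known from photoreceptors and the pineal gland, all named after their values were seen, had low counts that were unevenly spread over the libraries. Rbp3, a retinoid-binding protein, had 27, 49 and 26 counts in the exposed KO libraries and 0 to 4 in each of the other 9. Tulp1 had 10, 12 and 19 counts in the exposed KO libraries and 0 to 3 in each of the others. Gnb3, a G protein subunit of cones, had 65 of its 114 exposed counts in exposed KO replicate 2. Its log2 fold change was 2.37 over all 12 libraries and 1.61 to 2.56 with 1 library left out. Mpp4 had 44 counts in the exposed WT and 78 in the exposed KO libraries, against 23 and 24 in the unexposed ones. Cerkl had 81 and 74 counts in the exposed WT and KO libraries, against 43 and 40. Rbp3, Tulp1 and Gnb3 passed the filter on low counts through the exposed KO libraries, and Mpp4 passed it through the exposed libraries. The values of these genes are therefore a description only.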
